A study of Caenorhabditis elegans with 9 samples.

Results

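The major sperm protein genes and 4 smaller sperm gene groups were described in RNA-seq of whole *C. elegans* kept on alternate day fasting (ADF) from young adulthood. Members were the protein-coding genes whose RefSeq symbol begins with *msp-*, *nspd-*, *ssp-* or *ssq-* and a number, together with *gsp-3* and *gsp-4*. There were 60 of them among 45495 gene entries: 31 *msp*, 10 *nspd*, 13 *ssp*, 4 *ssq* and the 2 *gsp* genes. Copies within a family can be near identical, so each family is given apart. How alike they are was not tested, and annotated lengths differ within *ssp* (324 to 451 bases) and *ssq* (963 to 1316 bases).

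The labels list 9 libraries in 3 groups of 3, young stage ADF, middle stage ADF and control. Replicate 1 of young stage ADF was the library analysed, and the other 8 were not analysed here. It came from wild-type adult hermaphrodites, whole body, pooled in large numbers. They were kept at 20°C on ADF for 7 days, with days on *E. coli* OP50 alternating with days on plates without food. The labels name M9, the buffer in which worms were washed, as the treatment. With 1 library there was no replicate error and no comparison with fed worms. Every value below is therefore a level within one pool of worms, and no p-value is given.

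Nematode sperm have no flagellum and crawl like amoebae. The force comes from filaments of the major sperm protein (MSP), a small protein that takes the place of actin in this cell. MSP released by sperm also acts as a hormone, which starts oocyte maturation and contraction of the sheath cells around the oocyte. A hermaphrodite makes its sperm late in larval life, stores them in the spermatheca, and then switches its germ line to oocytes. Sperm stop transcribing before they mature, so most RNA of these families is made in spermatocytes.

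Levels are in FPKM, fragment counts scaled by exon length and by library depth. The scaling is meant to set genes of different length on one scale. No further correction for short genes was applied here. Levels of *nspd* (213 to 222 bases) and *msp* (234 to 384 bases) beside those of longer genes are therefore less sure. The number of fragments behind a value was recovered, where possible, from the FPKM steps, given a library of 18205113 fragments. The interval beside a value is an exact Poisson interval at 95% on those fragments. It covers counting error only, not the spread between worms or cultures, and PCR copies cannot be told from independent molecules. Comparing intervals is no test of a difference. Genes whose intervals overlap may still differ beyond counting error. Exact zeros are given as "listed at 0", because 8 of 77 ribosomal protein genes, which every cell uses, were also listed at 0.

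The sperm families were detected at middling levels. Of the 60 members, 53 lay above 0 and 52 reached 1 FPKM, while 56.9% of the 19959 protein-coding genes reached 1 FPKM and 83.4% lay above 0. At 10 FPKM the count was 13 of 60 members, beside 33.8% of protein-coding genes. The median of the members was 5.15 FPKM, and that of all protein-coding genes was 1.93 FPKM. Together the members held 354.7 FPKM, or 0.0421% of the summed FPKM, on 2607 fragments. The highest of them, *msp-57*, had 5494 protein-coding genes above it. In a library of whole worms, fewer cells of a type and less RNA per cell cannot be told apart.

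**Figure D1:**
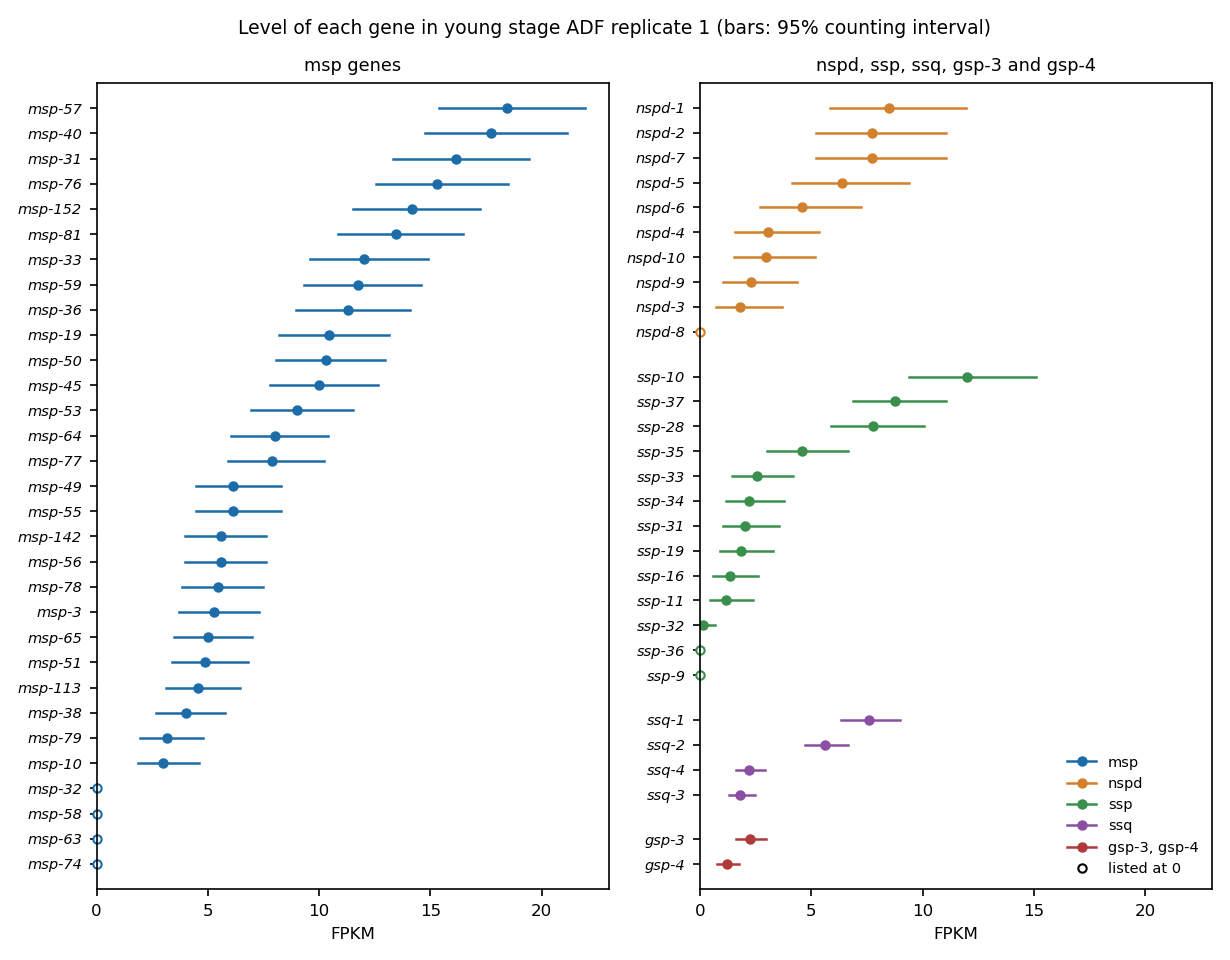
FPKM of each of the 60 genes in young stage ADF replicate 1, *msp* in the left panel and the other families in the right. Points are levels, bars are 95% counting intervals, and open circles are the 7 genes listed at 0. The *msp* levels run from 3.004 to 18.5 FPKM among the 27 copies above 0.

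The *msp* genes encode MSP itself. Of 31 copies, 27 reached 1 FPKM (87.1%, against 56.9% of protein-coding genes) and 12 reached 10 FPKM, beside 33.8% of protein-coding genes. The other 4 were listed at 0, while 83.4% of protein-coding genes lay above 0. The median was 6.15 FPKM over all copies, at percentile 61.3 of the protein-coding genes, and 8.01 FPKM over the copies above 0. The summed level was 244.8 FPKM on 1711 fragments, 0.0291% of all FPKM. This sum depends less on how fragments were divided among copies than the level of any copy does. Had fragments shared by copies been left out, however, the sum would be too low. So would the *msp* levels set beside other genes below.

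The highest copy was *msp-57* on chromosome IV (5062578 to 5062961, WBcel235), at 18.5 FPKM (15.4 to 21.9, 129 fragments). Next were *msp-40* on chromosome II (4825414 to 4825797) at 17.7 FPKM (14.8 to 21.1) and *msp-31* on chromosome II at 16.2 FPKM (13.3 to 19.4). These were followed by *msp-76* at 15.3 FPKM (12.5 to 18.5), *msp-152* at 14.2 FPKM (11.5 to 17.2) and *msp-81* at 13.4 FPKM (10.9 to 16.5). The intervals of these 5 copies overlapped that of *msp-57*, so the intervals alone did not set the order of the leading 6. The other 21 copies above 0 had intervals wholly below that of *msp-57*.

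The lowest copies above 0 were *msp-10* at 3.004 FPKM (1.86 to 4.59, 21 fragments), *msp-79* at 3.15 FPKM (1.97 to 4.76) and *msp-38* at 4.01 FPKM (2.66 to 5.79). Their intervals overlapped one another. All 27 copies above 0 have the same annotated length, 384 bases in a single exon with no UTR, and 127 codons with the stop. One fragment was thus worth the same 0.143 FPKM in each of them.

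The copies were not at one level. The highest stood 6.14-fold above the lowest, and the variance of the fragments was 16.2 times their mean of 63.4, where counting alone would give 1. Of the 351 pairs of copies, 179 had intervals that did not overlap. Whether fragments shared by near-identical copies were given to one copy, split or left out of the deposited values was not stated. All 31 *msp* values were whole numbers of fragments at the annotated length. How shared fragments were treated was not tested, so the level of a single copy is uncertain beyond its interval.

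Of the 4 copies listed at 0, 3 are shorter in the annotation than the rest. *msp-58* and *msp-74* have 234 bases and 77 codons, and *msp-32* has 360 bases. The fourth, *msp-63*, has the full 384 bases. No short copy was above 0, and 27 of the 28 full-length copies were, beside 83.4% of protein-coding genes.

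The *nspd* genes make group D of the nematode-specific peptide family, short peptides whose role is less well known. Of 10 genes, 9 reached 1 FPKM, beside 56.9% of protein-coding genes. None reached 10 FPKM, beside 33.8% of protein-coding genes. The median was 3.81 FPKM, at percentile 56.6 of the protein-coding genes, and the sum was 45.01 FPKM on 176 fragments. *nspd-1* was highest at 8.51 FPKM (5.86 to 11.95, 33 fragments), *nspd-2* and *nspd-7* both stood at 7.74 FPKM (5.22 to 11.04), and *nspd-5* and *nspd-6* followed at 6.36 and 4.58 FPKM. The intervals of these 4 overlapped that of *nspd-1*.

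*nspd-4* had 3.05 FPKM (1.58 to 5.33). The lowest above 0 were *nspd-3* at 1.78 FPKM (0.716 to 3.67, 7 fragments), *nspd-9* at 2.29 FPKM (1.05 to 4.34) and *nspd-10* at 2.97 FPKM (1.53 to 5.19). *nspd-8* was listed at 0. Among the 9 above 0, 11 of 36 pairs (30.6%) had separate intervals. At 7 to 33 fragments per gene, the intervals alone did not set much of the order within the family.

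The *ssp* genes are the sperm-specific family, class P. The product of *ssp-19* has a fold like that of MSP. Of 13 genes, 10 reached 1 FPKM (76.9%, against 56.9% of protein-coding genes). Of the rest, 1 lay between 0 and 1 FPKM and 2 were listed at 0, while 83.4% of protein-coding genes lay above 0. The median was 2.03 FPKM, at percentile 50.4 of the protein-coding genes, and the sum was 44.3 FPKM.

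*ssp-10* was the only gene of the 4 smaller groups above 10 FPKM, at 11.98 FPKM (9.38 to 15.1, 72 fragments). *ssp-37* had 8.77 FPKM (6.86 to 11.04), and *ssp-28* had 7.77 FPKM (5.88 to 10.1). The intervals of both overlapped that of *ssp-10*. The symbol *ssp-28* is RefSeq's. Ensembl names the same gene *spp-28*, the prefix of the saposin-like proteins, and without it the family median was 1.93 FPKM.

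The other members were below these 3 genes, though the interval of *ssp-35* overlapped that of *ssp-28*. *ssp-35* stood at 4.58 FPKM (3.02 to 6.66), *ssp-33* at 2.54, *ssp-34* at 2.20, *ssp-31* at 2.03 and *ssp-19* at 1.83 FPKM (0.914 to 3.28). *ssp-16* had 1.33 FPKM and *ssp-11* 1.17 FPKM, on 8 and 7 fragments. *ssp-32* had 0.125 FPKM from 1 fragment, and *ssp-36* and *ssp-9* were listed at 0. RefSeq's *ssp-9* and *ssp-11* both carry the symbol *ssp-9* in Ensembl.

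The *ssq* genes, the sperm-specific family class Q, are longer and have 3 exons each, so they rest on more fragments per FPKM. All 4 lay above 1 FPKM, beside 56.9% of protein-coding genes. *ssq-1* had 7.59 FPKM (6.35 to 8.99, 133 fragments) and *ssq-2* had 5.63 FPKM (4.72 to 6.67, 135 fragments). *ssq-4* had 2.21 FPKM (1.63 to 2.93) and *ssq-3* had 1.81 FPKM (1.28 to 2.47). By their intervals the genes fell into an upper and a lower pair. Intervals overlapped within each pair and were separate between them, in 4 of 6 pairs of genes. The overlap does not show that the genes within a pair share a level.

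*gsp-3* and *gsp-4* encode protein phosphatase 1 (PP1) catalytic subunits that are enriched in sperm and needed for sperm meiosis and for the crawling of the mature cell. *gsp-3* had 2.22 FPKM (1.62 to 2.98, 45 fragments) and *gsp-4* had 1.19 FPKM (0.772 to 1.76, 25 fragments). Their intervals overlapped, and *gsp-3* was 1.86-fold above *gsp-4*. Both fragment numbers rest on exon lengths close to the annotated ones, 1111 in place of 1115 bases for *gsp-3* and 1151 in place of 1158 bases for *gsp-4*.

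The broadly used paralogs of the same enzyme gave levels of another order. *gsp-2* had 381 FPKM (374 to 389) and *gsp-1* had 116 FPKM (112 to 120). *gsp-2* was thus 171-fold above *gsp-3*, and *gsp-1* 52.1-fold above it. The intervals of the sperm-enriched pair were separate from those of both paralogs.

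**Figure D2:**
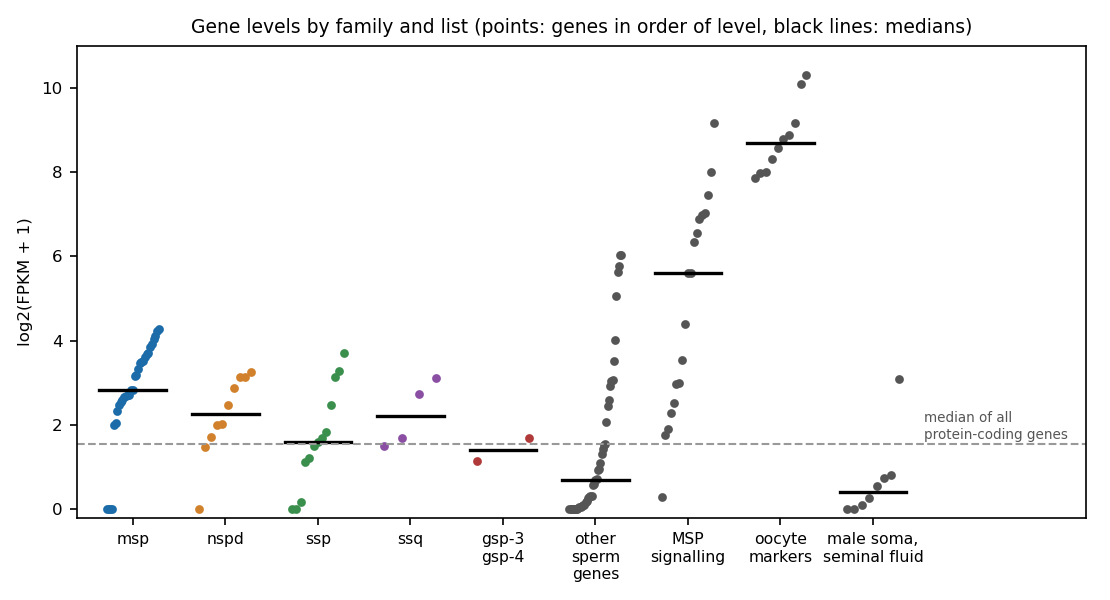
Levels on the log2(FPKM + 1) scale in young stage ADF replicate 1, with the sperm families at the left, gene lists beside them, and the median of all protein-coding genes as a dashed line. Each point is a gene and black lines are medians. The *msp* median of 2.84 stands above the line and all 10 oocyte markers stand above every *msp* gene.

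A further list of genes, chosen for a link to sperm formation or function, was read beside the families. Not every gene on it is particular to sperm, and their roles were not tested here. Of 50 such genes listed, 43 were found. They reached 1 FPKM in 18 cases (41.9%, against 56.9% of protein-coding genes), with a median of 0.606 FPKM. They were listed at 0 in 7 cases, while 83.4% of protein-coding genes lay above 0. The *msp* median was 6.15 FPKM. The highest of the list were *zipt-7.1* (a zinc transporter used in sperm activation) at 64.1, *sna-3* at 64.0, *spe-39* (vesicle trafficking, also active outside sperm) at 53.5, *spe-48* at 48.5 and *cpb-1* (an RNA-binding protein of the germ line) at 32.4 FPKM.

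Among the lowest of that list above 0 were *spe-42* at 0.0216 and *spe-38* at 0.0355 FPKM, both needed for fertilization. The level of *spe-42* rests on 1 fragment, and no fragment number could be recovered for *spe-38*. Among those listed at 0 were *spe-8*, *spe-27* and *spe-29* of the sperm activation pathway, *spe-11* of the sperm contribution to the embryo, and *spe-47* and *msd-2*.

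Markers of other cells in the pool were read the same way, and each count at 1 FPKM stands beside the 56.9% of protein-coding genes that reached it. All 10 oocyte markers lay between 232 and 1250 FPKM with a median of 410 FPKM, 66.7-fold above the *msp* median, and *perm-2* was highest. Their summed level was 21.5 times that of all *msp* genes. The 6 genes of the spermatheca and sheath all reached 1 FPKM, with a median of 3.90 FPKM and *fln-1* highest at 57.3 FPKM.

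Of 8 genes on a list for the male soma and seminal fluid, 1 reached 1 FPKM, against 56.9% of protein-coding genes. This was *plg-1* at 7.48 FPKM, while *lov-1* and *swm-1* were listed at 0. Whether each gene on the list is particular to the male soma or seminal fluid was not tested. The median of the 8 was 0.336 FPKM. Of 8 larval moulting genes 7 reached 1 FPKM, against 56.9% of protein-coding genes, with a median of 5.05 FPKM and *noah-2* highest at 16.1 FPKM. The remaining one, *mlt-10*, had 0.0705 FPKM on 3 fragments. *dpy-7* of this list is also on the hypodermis list. The study reports that under young stage ADF some eggs hatched within the mother. The part of larval tissue in the levels of the sperm families was not tested. Intestine, muscle and neuron lists were detected in full and the hypodermis list in 3 of 4, led by *vit-6*, *tnt-2*, *snb-1* and *col-19*.

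The genes through which MSP acts on the oocyte and the sheath had the higher median. Of 19 genes, 18 reached 1 FPKM, beside 56.9% of protein-coding genes, and 12 reached 10 FPKM, beside 33.8%. Their median was 47.6 FPKM, against 6.15 FPKM for *msp*, and was the level of *vab-1* (46.03 to 49.3), the Eph receptor that MSP binds on the oocyte. *efn-2*, an ephrin ligand for that receptor, stood at 6.95 FPKM.

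Within the oocyte, *oma-2* (568 FPKM) and *oma-1* (256 FPKM), zinc finger proteins of the maturing oocyte that also serve as oocyte markers here, were the highest of the list. *dab-1*, an adaptor that acts in receptor trafficking, had 174 FPKM, and *mpk-1*, the MAP kinase activated by the signal, had 92.5 FPKM. *unc-43*, a CaM kinase, stood at 10.7 FPKM. Each of these 5 lay above the *msp* median of 6.15 FPKM.

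The gap junction subunits *inx-14* and *inx-22* of the oocyte and *inx-8* and *inx-9* of the sheath had 126, 80.5, 130 and 48.01 FPKM. *goa-1*, a G protein that holds maturation back, had 117 FPKM. The sheath arm that relays the signal through cyclic AMP was lower. *gsa-1* (the stimulating G protein) had 2.73 and *acy-4* (an adenylate cyclase) had 3.89 FPKM, while *kin-1* and *kin-2* (the catalytic and regulatory subunits of protein kinase A) had 6.87 and 20.0 FPKM.

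*ceh-18*, a homeobox factor of the sheath that is also on the spermatheca and sheath list, had 2.40 FPKM, and *gpa-17*, a G protein subunit, had 4.74 FPKM. *nmr-1*, a glutamate receptor subunit known mainly from neurons, was the one gene under 1 FPKM, at 0.226 FPKM on 13 fragments. Many of these genes are also active in other tissues, so a level here is not a level in the oocyte or sheath.

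**Figure D3:**
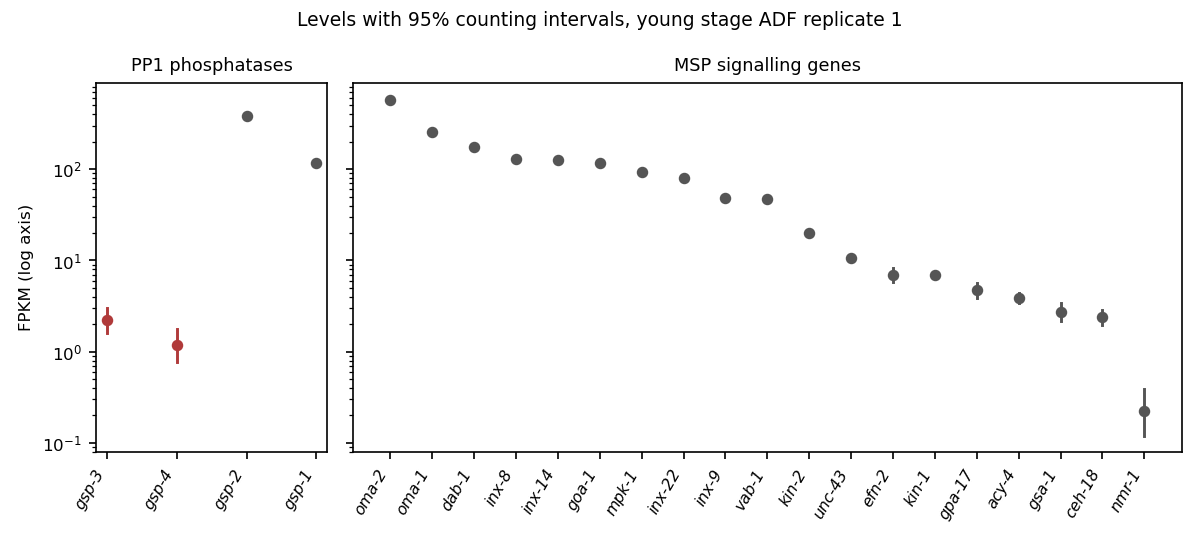
FPKM on a log axis, with 95% counting intervals, of the sperm-enriched phosphatases (red) beside their broadly used paralogs (left panel) and of the 19 genes of MSP signalling (right panel). *gsp-3* and *gsp-4* sit at 2.22 and 1.19 FPKM, and the signalling genes run from *oma-2* at 568 FPKM down to *nmr-1* at 0.226 FPKM.

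The *msp* genes lie together in the genome, and the other families do so in part. Chromosome IV holds 32 members, chromosome II 15, chromosome I 9, and chromosomes III and V 2 each. Taking members as one cluster where gaps stay within 250 kb, 45 of the 60 fell into 4 clusters of 3 or more, and these hold all 31 *msp* genes. The clusters also hold 6 of 10 *nspd*, 5 of 13 *ssp* and 3 of 4 *ssq* genes. Outside them lie 4 *nspd* genes, 8 *ssp* genes, *ssq-3*, *gsp-3* and *gsp-4*.

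The first cluster on chromosome II (4785898 to 5200180) has 12 members with a median of 8.19 FPKM. The second (5797065 to 5810330) has 3 *msp* genes with a median of 5.58 FPKM. On chromosome IV, the first (4994371 to 5316906) and second (9689015 to 10269187) have 15 members each, with medians of 4.86 and 7.59 FPKM. Each of the 3 larger clusters held both a copy from the leading 6 and a member listed at 0.

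By chromosome, the *msp* genes above 0 had a median of 10.2 FPKM on chromosome II, with a range of 5.29 to 17.7 FPKM. On chromosome IV the median was 6.15 FPKM, with a range of 3.004 to 18.5 FPKM. The range on chromosome II lay within that on chromosome IV. Of the 4 copies listed at 0, 3 lie on chromosome II.

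**Figure D4:**
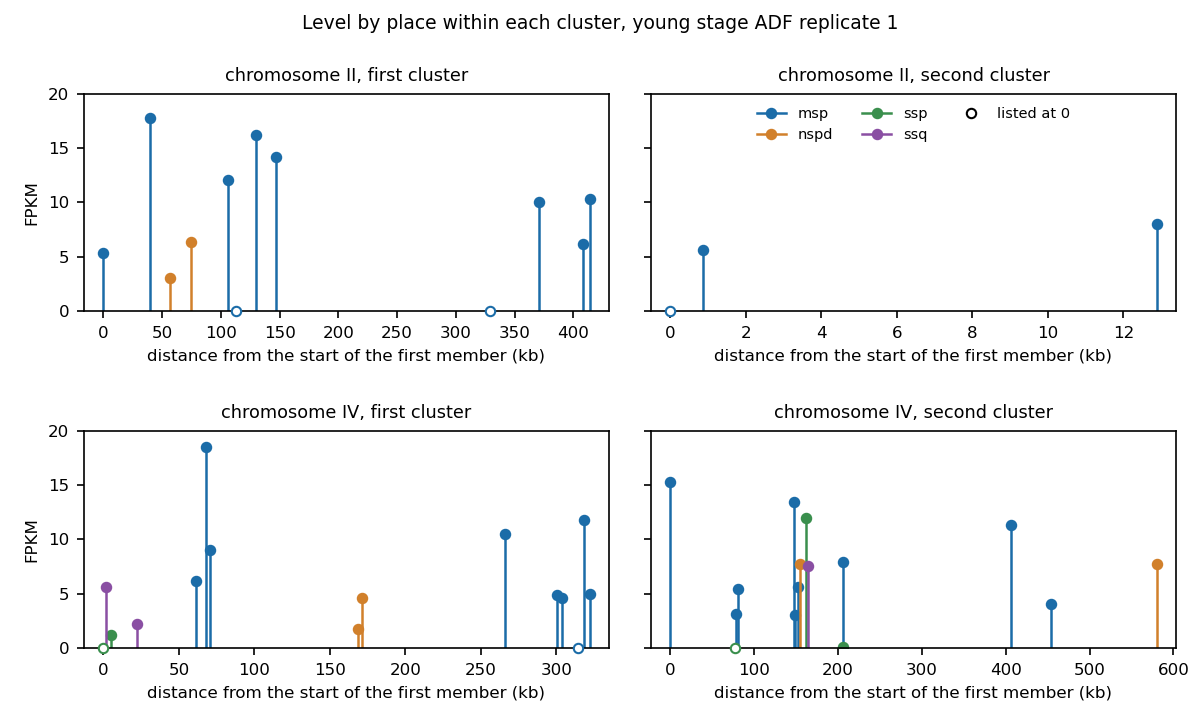
FPKM of each member by its distance in kb from the start of the first member, in the 4 clusters, colored by family. Open circles are genes listed at 0. The highest copies, at 18.5 and 17.7 FPKM, lie in the first cluster of chromosome IV and the first of chromosome II.

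Some close neighbors were unlike in level. The pairs that follow were picked after their values were seen. *msp-81* at 13.4 FPKM and *msp-10* at 3.004 FPKM lie 1231 bases apart, with separate intervals and a ratio of 4.48. *msp-57* at 18.5 FPKM and *msp-53* at 9.01 FPKM lie 1716 bases apart.

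Genes listed at 0 also had neighbors that were not. *msp-63* lies 478 bases from *msp-142* at 5.58 FPKM on the opposite strand, and *msp-58* lies 3901 bases from *msp-59* at 11.7 FPKM. *ssp-32* at 0.125 FPKM lies 373 bases from *msp-77* at 7.87 FPKM. Other neighbors were alike, such as *msp-51* at 4.86 and *msp-113* at 4.58 FPKM, 2621 bases apart.

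For 5 members the span of another gene, introns included, overlaps, so their fragments may not be their own. *msp-31* overlaps *aagr-2* (54.2 FPKM) on the same strand, and *msp-38* overlaps *dhs-12* (99.98 FPKM) on the opposite strand. *msp-33* overlaps *gst-9* (4.16 FPKM), *msp-45* overlaps *srb-13*, listed at 0, and *ssq-4* overlaps *T28H11.7* (0.585 FPKM). The KAPA kit in the study's methods keeps strand and the TruSeq kit in the labels may not, so the opposite-strand overlaps cannot be resolved. *msp-31* is the one of these among the leading 6 copies.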

How the data were processed

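The values deposited by the authors are FPKM. Per the study's methods, HISAT2 aligned the reads to the WBcel235 genome and Ballgown gave the FPKM. The submitters' processing notes also name Bowtie 0.12.2 and StringTie, with no role. The gene annotation is not given in the sources used here. Of 45519 entries, 24 name no gene and were not used (0.103% of all FPKM). Entries were matched by gene number to RefSeq, which matched 44752 of 45495, and members were placed on Ensembl release 115. Of 6 pseudogenes of these families in RefSeq, 0 had an entry.

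Fragments behind each FPKM were recovered, where possible, from the library total that makes low values whole. Of 5944 protein-coding genes under 30 fragments, 78.4% came within 0.02 of a whole number, as did 58 of 60 members at the annotated length. The count step was tested on simulated data. Python 3.11.15, numpy 2.4.6, scipy 1.17.1 and pandas 2.3.3 were used. A gene at 1 FPKM counted as detected.

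Members and lists were chosen with earlier results of these data known. Named were every *ssp*, *ssq* and *gsp* member, the 6 highest, 3 lowest above 0 and all *msp* and *nspd* genes at 0, every signalling gene, the 5 highest, 3 lowest above 0 and all other sperm genes at 0, and the highest of each marker list. Some genes under this rule are not reported here. Others are said to be picked after their values were seen. Alternatives changed the threshold, scale, pseudocount, reference set and fragment recovery.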

Additional observations from a re-analysis of the deposited data

How the results depend on the processing

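No paired analysis was possible because replicate 1 of young stage ADF stood alone. At 10 FPKM in place of 1 FPKM, the detected members were 12 *msp*, 0 *nspd*, 1 *ssp*, 0 *ssq* and 0 *gsp* genes. Of protein-coding genes, 33.8% reached 10 FPKM. Among protein-coding genes of at least 1 FPKM the family medians stood at percentiles 32.0 (*msp*), 23.7 (*nspd*), 12.8 (*ssp*), 24.1 (*ssq*) and 9.83 (*gsp*), and among those above 0 at 53.6 (*msp*), 48.003 (*nspd*), 48.3 (*ssq*) and 38.5 (*gsp*). Without the 100 highest genes the shares of summed FPKM were 0.0411% (*msp*), 0.00756% (*nspd*), 0.00744% (*ssp*), 0.00289% (*ssq*) and 0.000574% (*gsp*). As shares of recovered fragments they were 0.00959% (*msp*), 0.000987% (*nspd*) and 0.00165% (*ssp*). The *gsp* median was 0.79 at a pseudocount of 0.1 and 0.71 at 0.01 on the log2 scale, against 1.41 at 1. The other 52 values moved by less than their spread or, for counts, by no more than 1.5 times. Leaving out *ssp-28*, or the members that overlap another gene, was chosen after seeing the data. Averaging copies with an identical protein, the spread among such copies and the promoter letters were not run, for want of sequences. The intervals alone cannot rank copies with few fragments at this depth.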

Other observations

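Other groups of the nematode-specific peptide family were read after the *nspd* values were seen. The 18 *nspc* genes had a median of 36.98 FPKM, 16 of them reached 1 FPKM (against 56.9% of protein-coding genes), and *nspc-14* was highest at 122.6 FPKM (114.4 to 131.2). The *nspc* median thus lay above the highest *nspd* gene, *nspd-1* at 8.51 FPKM. Of 10 *nspa* genes 2 reached 1 FPKM, of 12 *nspb* genes 0 did, and of 8 *nspe* genes 3 did, against the same 56.9%, with medians of 0, 0 and 0.645 FPKM.

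The 4 *msd* genes, which encode short proteins with an MSP domain, had a median of 2.497 FPKM. *msd-4* was highest at 10.5 FPKM (8.06 to 13.4). Among the 30 genes with the *spp* prefix, which Ensembl gives to RefSeq's *ssp-28*, 20 reached 1 FPKM (66.7%, near the 56.9% of protein-coding genes) and the median was 9.50 FPKM.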
